A study of Mus musculus with 18 samples.

Results

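The genes described here are 32 genes that make cholesterol and fatty acids or control that synthesis, taken as a named list. They comprise 18 enzymes of sterol synthesis, 6 genes of sterol sensing and transport, and 8 genes of fatty acid synthesis. The samples were MLL/ENL Nras acute myeloid leukemia (AML) cells of C57BL/6 mice, sorted as GFP-positive cells from the marrow of recipients and profiled by RNA sequencing. The 6 groups held 3 samples each: CX-5461 and vehicle, each at 10 h in p53null AML, at 10 h in p53WT AML and at 72 h in p53WT AML. CX-5461 is an inhibitor of RNA polymerase I, the enzyme that transcribes ribosomal RNA genes. All groups shared the MLL/ENL Nras leukemia model. The number of independent leukemias or animals behind the samples, and the part of Trp53 that p53null cells lack, are not given in the sources used here. The p53WT 10 h table held 31 of the 32 among its 12679 genes, and 30 were among the 12861 of the p53null table and 30 among the 12838 of the p53WT 72 h table. Hmgcs1, the synthase that opens the mevalonate pathway, had no row in any of the 3 tables under its current Ensembl ID and was not analysed here. Scd1 was also missing from the p53null table and Fads2 from the 72 h table.

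Cholesterol is built from acetyl-CoA through mevalonate, isoprenoid pyrophosphates, squalene and lanosterol. Most enzymes of this route are transcribed under SREBP2, the product of Srebf2, while SREBP1, the product of Srebf1, acts more on fatty acid synthesis. When membrane sterol is low, SCAP carries the SREBPs from the endoplasmic reticulum to the Golgi, where proteases release the active factors. INSIG proteins hold SCAP back when sterol is high. Oxysterols also activate LXR receptors, which raise sterol export genes such as Abcg1 and the ubiquitin ligase gene Mylip.

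Counts per library existed for p53WT AML at 10 h, with 21578685 to 48118513 counts per library. Values below are CPM, counts scaled to a common library total with TMM factors, given for each library or as mean ± SD with n = 3 per group. Arms were tested with edgeR's quasi-likelihood model, Benjamini-Hochberg adjusted over 12679 genes, and a gene passed at an adjusted p under 0.05. The p53null and the 72 h comparisons rest on the authors' deposited tables, which hold fold changes and false discovery rates (FDR) and no values per library. Trp53 averaged 61.5 CPM in p53null AML and 169 CPM in p53WT AML at 10 h, by the authors' deposited tables, and which part of the gene the reads cover is not known from them. All 10 markers of immature myeloid and MLL-driven cells, such as Hoxa9, Meis1 and Mpo, were in each table. Their summed level at 10 h in p53WT AML was 16500 to 16700 CPM with CX-5461 and 12200 to 15800 CPM with vehicle. Mpo (7780 ± 135 CPM with CX-5461, 6440 ± 1130 CPM with vehicle) and Elane (4260 ± 83.0 CPM with CX-5461, 3700 ± 367 CPM with vehicle) made up most of this sum. Of the 10, the edgeR quasi-likelihood test called 1, the pan-leukocyte gene Ptprc, which fell (308 ± 5.63 CPM with CX-5461, 409 ± 38.6 CPM with vehicle, log2 fold change -0.41, adjusted p = 0.0344).

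Markers of other marrow cells differed between the arms at 10 h in p53WT AML, and they are given here because they touch every result of that comparison. The summed level of 10 measured erythroid markers out of 12 was 11.9 to 16.9 CPM in CX-5461 libraries and 63.5 to 1820 CPM in vehicle libraries. For 10 of 10 neutrophil markers the sum was 2830 to 3960 CPM with CX-5461 and 7000 to 19000 CPM with vehicle. Vehicle library 2 held the most of both and vehicle library 3 the least, so the vehicle group was the less even one. The 10 macrophage markers summed to 474 to 503 CPM with CX-5461 and 528 to 731 CPM with vehicle. Of 8 adipocyte markers only Fabp4, Lpl and Cd36 had a row, and the defining genes Adipoq, Plin1, Cidec and Lep had none in any table. The 3 summed to 9.28 to 12.1 CPM with CX-5461 and 8.77 to 51.8 CPM with vehicle, and the 2 B cell markers of 8 with a row to 23.1 to 25.5 CPM with CX-5461 and 22.5 to 70.7 CPM with vehicle. The erythroid genes Gata1 and Epor and the B cell gene Pax5 had no row in the 10 h p53WT table. In sorted bulk samples, fewer cells of a type and less RNA per cell cannot be told apart.

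After 10 h of CX-5461, the sorted p53WT AML samples had higher CPM for several sterol synthesis enzymes and for the sterol sensors Insig1 and Scap. The rise was 1.22- to 1.62-fold among those that passed. RNA per AML cell and the cell mix described above cannot be told apart in these values. Of 31 measured members, 8 rose and 1 fell, where 3.78% of all genes rose and 4.32% fell. In 18 of the 31 every CX-5461 library lay above every vehicle library, against 19.9% of all genes, and in 1 every CX-5461 library lay below, against 19.1%. The median log2 fold change of CX-5461 over vehicle was 0.22 for the members and 0.004 for all genes tested. For the 10 markers of immature myeloid and MLL-driven cells it was 0.20, near that of the members. Of these markers 8 had a positive log2 fold change, and in 5 every CX-5461 library lay above every vehicle library. These calls depended on having 3 libraries in the CX-5461 arm. Without CX-5461 library 1, 2 or 3, 0 members were called in either direction by the edgeR quasi-likelihood test, and the whole table gave 24, 23 and 23 rises.

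**Figure D1:**
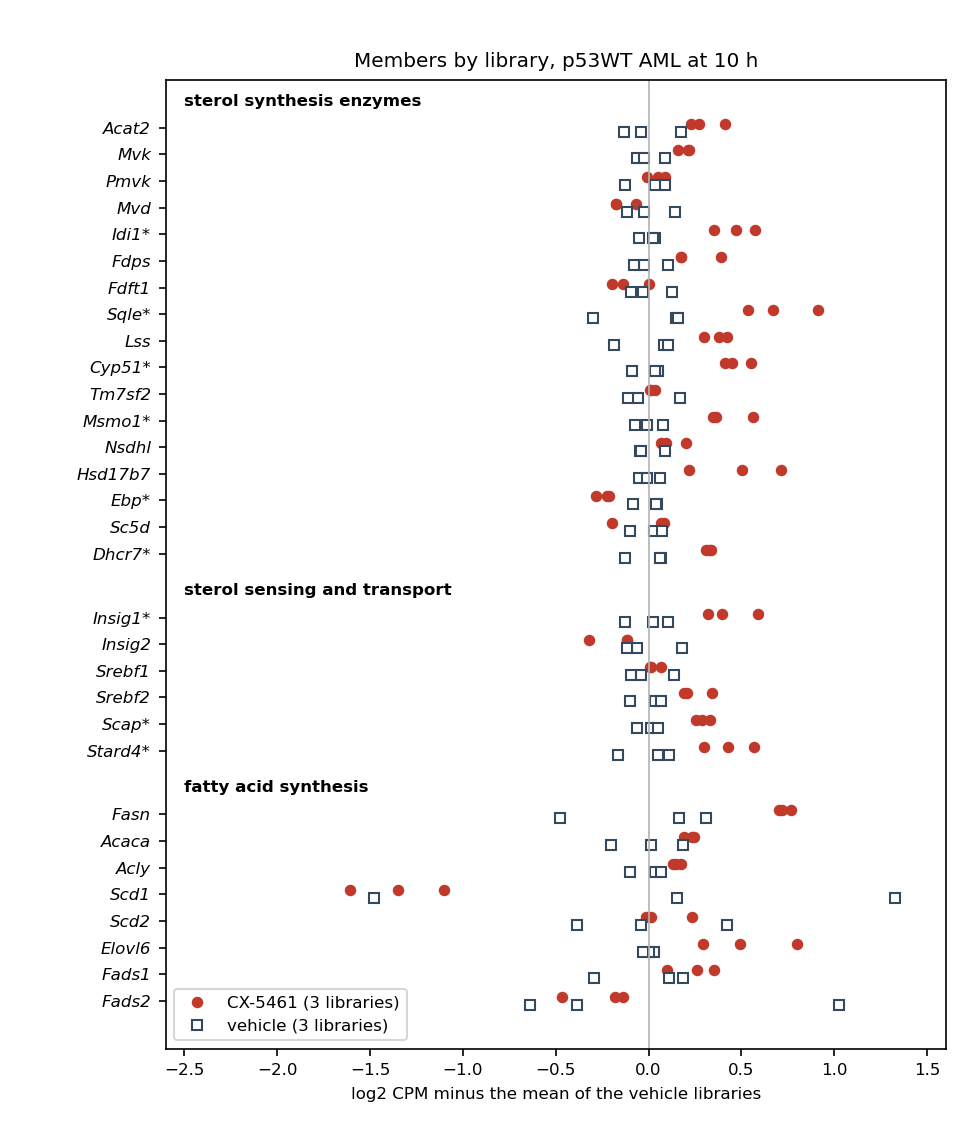
Log2 CPM of each of 31 members in each library of p53WT AML at 10 h, minus the mean of the 3 vehicle libraries for that gene (horizontal axis, log2 units). Filled circles are CX-5461 libraries, open squares are vehicle libraries, and an asterisk marks the 9 members past the edgeR test; the circles lie right of all squares for 18 members and left of them for Ebp.

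Among the 17 measured enzymes of sterol synthesis, 5 rose and 1 fell, 13 had a positive log2 fold change, and the median was 0.25. None of the enzymes of the early steps passed. Acat2, the thiolase that makes acetoacetyl-CoA, averaged 40.0 ± 2.69 CPM with CX-5461 and 32.5 ± 3.59 CPM with vehicle (edgeR adjusted p = 0.0854). The kinase genes Mvk and Pmvk and the decarboxylase gene Mvd had log2 fold changes of 0.19, 0.04 and -0.14, with arms apart only for Mvk.

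The isomerase gene Idi1, which makes the allylic isoprenoid unit, had 54.7, 58.7 and 50.4 CPM in the CX-5461 libraries, against 40.4, 38.1 and 40.1 CPM in the vehicle libraries. The arms did not overlap, and Idi1 rose by a log2 fold change of 0.47 (SE 0.0683, edgeR adjusted p = 0.0261). Fdps, which makes farnesyl pyrophosphate, had 148, 172 and 148 CPM with CX-5461 and 129, 124 and 141 CPM with vehicle. Its arms were also apart, but by less, and it did not pass (log2 fold change 0.25, edgeR adjusted p = 0.0874). Fdps shares exons with a same-strand gene model, Gm43738, in GENCODE M21, so its count is uncertain. Fdft1, squalene synthase, had overlapping arms and a log2 fold change of -0.11.

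Sqle encodes squalene epoxidase, a rate-limiting enzyme of the later route. It had 55.2, 65.2 and 50.2 CPM with CX-5461 and 38.3, 28.1 and 38.6 CPM with vehicle. Every CX-5461 library was above every vehicle library, and vehicle library 2 was the lowest of the 6. Sqle rose 1.62-fold, a log2 fold change of 0.70 (SE 0.146, edgeR adjusted p = 0.0408), and of 0.56 without vehicle library 2 (edgeR adjusted p = 0.0287). Lss, lanosterol synthase, was higher in every CX-5461 library (25.0 ± 1.07 CPM) than in every vehicle library (19.4 ± 2.08 CPM), but did not pass (edgeR adjusted p = 0.0569).

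Several of the enzymes that turn lanosterol into cholesterol moved the same way. Cyp51, lanosterol demethylase, had 52.6, 56.3 and 51.2 CPM with CX-5461 and 39.9, 36.2 and 39.4 CPM with vehicle. Each arm was tight and the arms were far apart, with a log2 fold change of 0.47 (SE 0.0638, edgeR adjusted p = 0.0213), the smallest adjusted p of the 31 members. Msmo1, a methyl sterol oxidase, had 39.3, 45.1 and 38.9 CPM with CX-5461 and 32.3, 30.4 and 29.1 CPM with vehicle, a rise of 0.42 on the log2 scale (SE 0.0792, edgeR adjusted p = 0.0362). Dhcr7, a reductase of the last steps, had 55.6, 56.3 and 56.6 CPM with CX-5461 and 47.0, 41.1 and 46.9 CPM with vehicle. It rose by 0.32 on the log2 scale (SE 0.0653, edgeR adjusted p = 0.0401), with the arms apart. Hsd17b7, a keto-sterol reductase, had 22.7, 26.2 and 18.6 CPM with CX-5461 and 15.4, 15.9 and 16.7 CPM with vehicle. Its arms did not overlap, yet the spread within CX-5461 was wide and it stayed just outside the threshold (log2 fold change 0.49, edgeR adjusted p = 0.0562).

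Ebp, a sterol isomerase, went the other way, with 45.0, 47.3 and 46.9 CPM with CX-5461 and 51.7, 56.6 and 56.3 CPM with vehicle. It fell by 0.24 on the log2 scale (SE 0.0569, edgeR adjusted p = 0.0492), close to the threshold. Without vehicle library 2 its edgeR adjusted p was 0.0679 and without vehicle library 3 it was 0.0741. Nsdhl, a sterol dehydrogenase, had 22.5, 24.7 and 22.9 CPM with CX-5461 and 20.8, 22.8 and 20.9 CPM with vehicle. Nsdhl, Tm7sf2 and Sc5d had log2 fold changes between -0.01 and 0.12 and overlapping arms. Because the library kit does not mark strand, reads in exons shared with a gene on the opposite strand cannot be assigned. In GENCODE M21 such exons exist for Cyp51 (166 bases shared with Akap9), Fdft1 (774 bases with Ctsb), Idi1 (323 bases with Gm48574), Lss (381 bases with 4930483K19Rik), Scap (785 bases with 5830462I19Rik) and Srebf1 (109 bases with Rai1).

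SREBPs bind promoters together with NF-Y, which reads CCAAT, and Sp1, which reads the GC box. The promoters below are those of the 4 called members with the smallest p that hold a CCAAT box, shown because these genes rose together. Each runs over the 250 bases before a RefSeq start site on GRCm38.p6, written along the gene. Capitals mark each CCAAT or its complement ATTGG and each GGGCGG or its complement CCGCCC. Where a gene had several start sites, the stretch with the most CCAAT boxes was printed. Dhcr7 also had a window at chr7:143822917-143823216, which held a CCGCCC and no CCAAT.
Cyp51 (chr5:4104698-4104947, minus strand): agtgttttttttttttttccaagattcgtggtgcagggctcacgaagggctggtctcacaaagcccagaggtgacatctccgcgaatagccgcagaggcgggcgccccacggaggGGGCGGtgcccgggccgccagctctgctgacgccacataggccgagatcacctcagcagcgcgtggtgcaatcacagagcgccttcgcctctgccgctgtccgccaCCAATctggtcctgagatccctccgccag
Idi1 (chr13:8885356-8885605, plus strand): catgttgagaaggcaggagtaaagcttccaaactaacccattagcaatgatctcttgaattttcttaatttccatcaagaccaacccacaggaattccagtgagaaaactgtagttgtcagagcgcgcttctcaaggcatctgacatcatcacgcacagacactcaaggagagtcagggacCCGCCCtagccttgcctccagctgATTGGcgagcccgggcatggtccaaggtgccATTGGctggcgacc
Msmo1 (chr8:64733579-64733828, minus strand): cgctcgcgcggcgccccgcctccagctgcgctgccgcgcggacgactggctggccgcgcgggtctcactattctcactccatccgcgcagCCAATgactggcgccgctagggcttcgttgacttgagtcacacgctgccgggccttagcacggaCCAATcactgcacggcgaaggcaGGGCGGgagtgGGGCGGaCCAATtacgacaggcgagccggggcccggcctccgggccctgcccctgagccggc
Dhcr7 (chr7:143829964-143830213, plus strand): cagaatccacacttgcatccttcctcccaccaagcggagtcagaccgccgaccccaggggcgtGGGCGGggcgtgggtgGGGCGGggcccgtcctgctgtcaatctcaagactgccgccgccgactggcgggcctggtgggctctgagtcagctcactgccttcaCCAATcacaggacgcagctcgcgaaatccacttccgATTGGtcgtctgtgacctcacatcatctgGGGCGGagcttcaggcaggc
Matches were sought on both strands in the RefSeq windows from 250 bases before to 50 bases after the start, and 25 of the 32 members had a window. CCAAT was found for 20 of the 25 members and for 41.1% of 27025 genes. GGGCGG was found for 21 of the 25 members and for 38.2% of genes. In Msmo1 the printed stretch holds 3 CCAAT boxes and in Idi1 and Dhcr7 2 each, against 1 in Cyp51. The sterol regulatory element TCACNCCAC, as letters, was found for 1 member, Hmgcs1, as TCACCCCAC at 137 bases before its start, and for 1.44% of genes. None of the 7 called members with a window held these letters there, which says nothing of SREBP binding. In the printed stretches no match overlaps another, and the base composition of the promoters was not matched.

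Of the 6 genes of sterol sensing and transport, 3 rose and 0 fell (0 lower also at an unadjusted p under 0.05, by DESeq2 and by limma-voom), with a median log2 fold change of 0.27. Insig1, an SREBP target that retains SCAP, had 53.2, 64.2 and 56.0 CPM with CX-5461 and 45.8, 39.1 and 43.3 CPM with vehicle. The arms were apart and the rise was 0.43 on the log2 scale (SE 0.0908, edgeR adjusted p = 0.0408), with an edgeR adjusted p of 0.0534 without vehicle library 3. Stard4, a soluble sterol carrier, had 85.5, 94.1 and 78.1 CPM with CX-5461 and 65.9, 56.8 and 68.6 CPM with vehicle. It too rose without overlap, by 0.43 on the log2 scale (SE 0.0946, edgeR adjusted p = 0.0433, and 0.0514 without vehicle library 1). Scap, the escort itself, had 84.1, 81.9 and 80.1 CPM with CX-5461 and 67.5, 64.1 and 69.5 CPM with vehicle, a rise of 0.29 on the log2 scale (SE 0.0510, edgeR adjusted p = 0.0342).

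The factor genes differed from each other. Srebf2 averaged 177 ± 10.5 CPM with CX-5461 and 150 ± 9.18 CPM with vehicle, without overlap, but did not pass (log2 fold change 0.24, edgeR adjusted p = 0.0628). Srebf1 had 103, 99.0 and 99.3 CPM with CX-5461 and 108, 92.2 and 95.5 CPM with vehicle, a log2 fold change of 0.03. Insig2, the paralog of Insig1 that is not driven by the same feedback, averaged 15.1 ± 1.20 CPM with CX-5461 and 17.2 ± 1.97 CPM with vehicle, a log2 fold change of -0.18. Neither Srebf1 nor Insig2 passed, and in both the arms overlapped.

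Of the 8 genes of fatty acid synthesis, 0 passed the edgeR quasi-likelihood test in either direction (3 higher and 1 lower at an unadjusted p under 0.05, 2 higher and 1 lower by DESeq2, and 0 by limma-voom). Of all genes, DESeq2 called 18.3% in either direction and the edgeR quasi-likelihood test 8.1%. The median log2 fold change of the fatty acid genes was 0.18. Fasn, fatty acid synthase, had 205, 196 and 198 CPM with CX-5461 and 149, 86.6 and 135 CPM with vehicle. All CX-5461 libraries lay above all vehicle libraries, and vehicle library 2 was far below the other vehicle libraries. The log2 fold change was 0.69 (SE 0.181, edgeR adjusted p = 0.0567), as large as that of Sqle. Leaving out vehicle library 2 lowered it to 0.49 and its edgeR adjusted p to 0.00862, and without vehicle library 1 the edgeR adjusted p was 0.0379.

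Elovl6, which lengthens palmitate to stearate, had 14.8, 21.0 and 17.0 CPM with CX-5461 and 12.3, 12.1 and 11.8 CPM with vehicle. The arms were apart, and the gene lay just outside the threshold with a log2 fold change of 0.54 (SE 0.132, edgeR adjusted p = 0.0518). Acly, which makes cytosolic acetyl-CoA, averaged 335 ± 4.77 CPM with CX-5461 and 301 ± 18.5 CPM with vehicle. Acaca, acetyl-CoA carboxylase, averaged 77.8 ± 1.56 CPM with CX-5461 and 67.0 ± 8.96 CPM with vehicle, and without vehicle library 1 its edgeR adjusted p was 0.0493. In both genes the arms did not overlap, and neither passed with all libraries.

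The desaturase genes showed no common direction. Scd2 had 252, 216 and 212 CPM with CX-5461 and 287, 208 and 164 CPM with vehicle, arms that overlapped fully. Fads1 had 27.4, 29.2 and 24.5 CPM with CX-5461 and 26.0, 24.7 and 18.7 CPM with vehicle, a log2 fold change of 0.22. Scd1 was near the floor of the table, with 1.69, 1.42 and 1.19 CPM with CX-5461 and 4.02, 9.09 and 1.30 CPM with vehicle. Its vehicle libraries followed the order of the erythroid marker sums, 511, 1820 and 63.5 CPM. The neutrophil sums (10400, 19000 and 7000 CPM) and the B cell and adipocyte list sums had the same order. The part of any of these cell types in the Scd1 values was not tested. The Scd1 log2 fold change of -1.73 did not pass the edgeR quasi-likelihood test (adjusted p = 0.113) and was -0.94 without vehicle library 2 and -2.15 without vehicle library 3, where it passed (edgeR adjusted p = 0.0277), while the authors' deposited table listed it as lower (FDR 0.00231). Fads2 was at 0.940 to 2.98 CPM in the 6 libraries, highest in vehicle library 2.

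**Figure D2:**
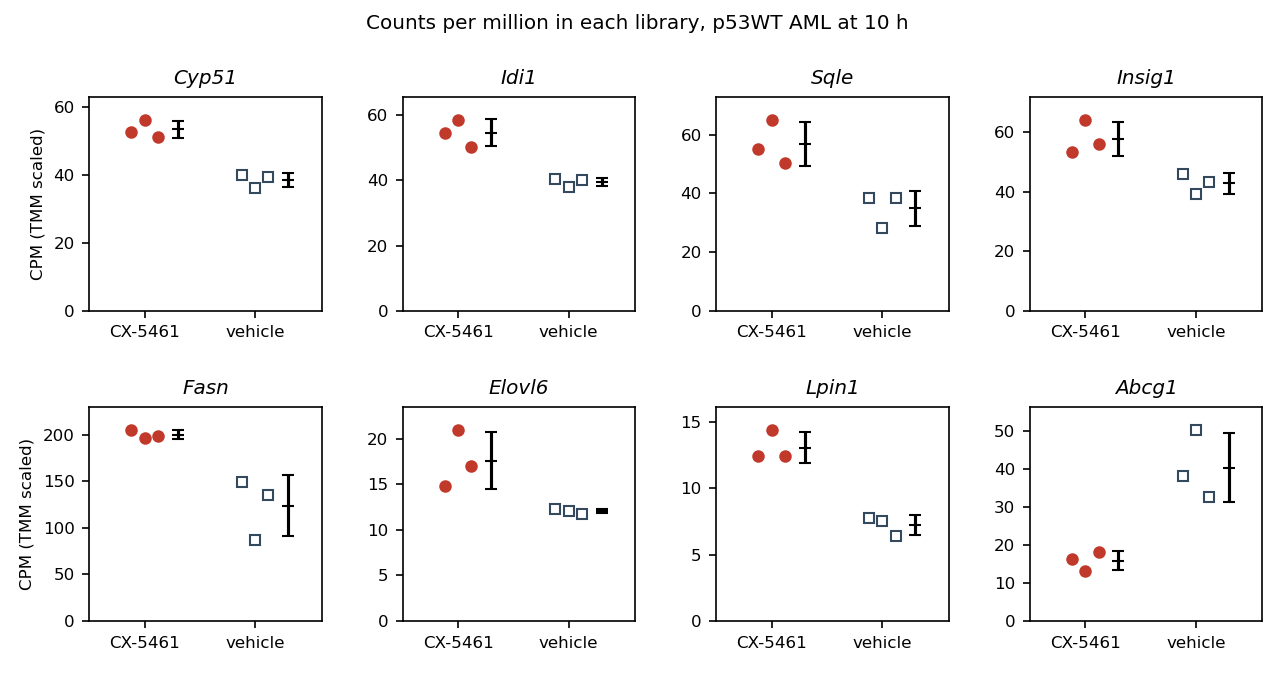
CPM after TMM scaling (vertical axis, from 0) in each library of p53WT AML at 10 h, CX-5461 left and vehicle right, for 6 members and for Lpin1 and Abcg1; bars beside the points are mean ± SD of 3 libraries. The CX-5461 libraries lie above the vehicle libraries in 7 of the genes and below them in Abcg1.

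Setting the branches side by side, the sterol enzymes had 5 of 17 higher and the fatty acid genes 0 of 8, but the medians were 0.25 and 0.18, and Fasn and Elovl6 missed the threshold narrowly. Per library, the median of the sterol enzymes relative to the vehicle mean was 0.17, 0.27 and 0.21 with CX-5461 and 0.03, -0.05 and 0.04 with vehicle on the log2 scale. The arms were apart for this branch and also for sterol sensing and transport. For the fatty acid genes the same medians were 0.24, 0.17 and 0.14 with CX-5461 and 0.16, -0.02 and -0.16 with vehicle, and the arms overlapped. The difference between the branches, sterol enzymes minus fatty acid genes, was -0.07, 0.10 and 0.08 with CX-5461 and -0.13, -0.03 and 0.20 with vehicle. These ranges overlap, so a different response of the branches was not detectable in these libraries.

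**Figure D3:**
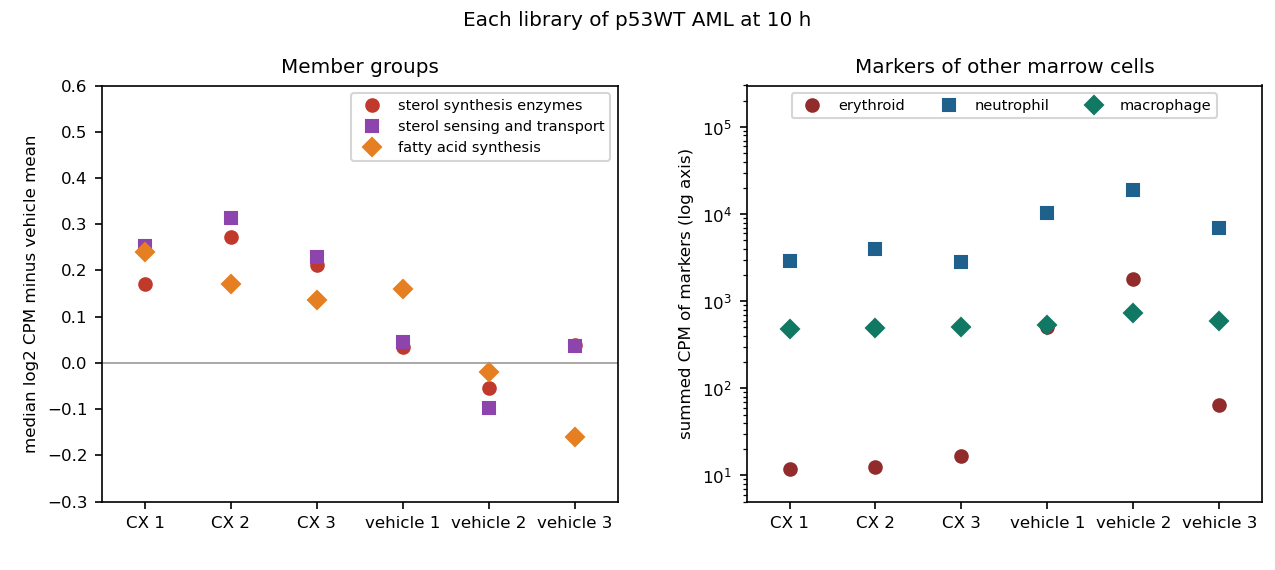
Left, median log2 CPM of each member group in each library of p53WT AML at 10 h minus the vehicle mean; right, summed CPM of erythroid, neutrophil and macrophage markers on a log axis. The sterol groups are at 0.17 to 0.31 with CX-5461 and at -0.10 to 0.04 with vehicle, while erythroid sums are 11.9 to 16.9 CPM with CX-5461 and 63.5 to 1820 CPM with vehicle.

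The marker levels bear on these medians. With each library's erythroid marker level (mean log2 CPM) added to the fit as a covariate, the medians were 0.18 for sterol enzymes, 0.14 for sterol sensing and transport and 0.50 for fatty acid genes, and 5 of 31 members had a negative log2 fold change. Among the members that rose, the log2 fold change in that fit was 0.23 for Sqle, 0.13 for Stard4, 0.15 for Dhcr7, 0.17 for Scap and 0.28 for Insig1, each over 1.5 times smaller, and 0.36 for Idi1, 0.34 for Cyp51 and 0.47 for Msmo1. Among the fatty acid genes in that fit, Scd1 was at 1.46 and Fads2 at 1.47, both near the floor of the table. Fasn was at 0.17, Acaca at 0.05 and Acly at -0.0045. The fatty acid median of 0.50 lay between these high and low values, so it also rested on Scd2, Elovl6 and Fads1. In that fit 0 members were called by the edgeR quasi-likelihood test, and 12 genes of the whole table were. The covariate and the arm largely coincide, since all CX-5461 libraries had lower erythroid sums than all vehicle libraries.

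Other lists of lipid genes differed from each other in the same libraries. Of 10 genes of the isoprenoid side branches and 11 of SREBP processing, 0 passed the edgeR quasi-likelihood test (3 higher and 0 lower, and 1 higher and 2 lower, at an unadjusted p under 0.05), with medians of 0.07 and -0.01. Of 11 measured genes of LXR signaling, sterol export and storage, 0 rose and 1 fell, Abcg1, which exports cholesterol. Abcg1 had 16.4, 13.1 and 18.1 CPM with CX-5461 and 38.1, 50.3 and 32.7 CPM with vehicle. The arms were far apart, and Abcg1 fell by 1.35 on the log2 scale (SE 0.182, edgeR adjusted p = 0.0213), with a log2 fold change of -0.67 that did not pass with the erythroid covariate described above (edgeR adjusted p = 0.443). Mylip, which targets lipoprotein receptors for degradation, had 26.2, 23.1 and 29.4 CPM with CX-5461 and 36.2, 49.1 and 31.6 CPM with vehicle. Its arms did not overlap (log2 fold change -0.57, edgeR adjusted p = 0.0757). The LXR gene Nr1h3 had 2.45, 1.84 and 1.87 CPM with CX-5461 and 3.19, 5.13 and 2.82 CPM with vehicle (log2 fold change -0.84, edgeR adjusted p = 0.0822). In Abcg1, Mylip and Nr1h3 vehicle library 2 was the highest and vehicle library 3 the lowest of the vehicle libraries. The erythroid and neutrophil marker sums had the same order. The part of these cell types in the values of Abcg1, Mylip and Nr1h3 was not tested. In the authors' deposited table all 3 of these genes, Abcg1, Mylip and Nr1h3, were lower (FDR 2.81e-10 for Abcg1, 0.0216 for Mylip and 0.00591 for Nr1h3).

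Of 21 measured genes of fatty acid supply, elongation and lipid assembly, 3 rose and 2 fell, where 3.78% of all genes rose and 4.32% fell. In 8 of the 21 every CX-5461 library lay above every vehicle library, against 19.9% of all genes. In 4 every CX-5461 library lay below, against 19.1%. Lpin1, a phosphatidate phosphatase and known SREBP target, had 12.4, 14.4 and 12.4 CPM with CX-5461 and 7.79, 7.50 and 6.40 CPM with vehicle. This was a rise of 0.85 on the log2 scale (SE 0.116, edgeR adjusted p = 0.0213), larger than that of any of the 31 members. In p53null AML at 10 h the Lpin1 log2 fold change was -0.08 in the authors' deposited table. Which factor went with the Lpin1 rise was not tested. G6pdx, which supplies NADPH, fell by 0.45 on the log2 scale (195 ± 12.2 CPM with CX-5461, 266 ± 32.9 CPM with vehicle, edgeR adjusted p = 0.0419), and the elongase gene Elovl7 fell by 1.42 at 1.09 ± 0.0296 CPM with CX-5461 and 2.95 ± 1.27 CPM with vehicle (edgeR adjusted p = 0.0438). Hsd17b12 and Hacd3, which act in fatty acid elongation, rose by 0.23 and 0.27 on the log2 scale (edgeR adjusted p = 0.0442 and 0.0463). Of 15 genes of fatty acid oxidation, 1 fell, the dehydrogenase gene Acadl (log2 fold change -0.41, edgeR adjusted p = 0.0461), and 0 rose (2 at an unadjusted p under 0.05). Hsd17b12, Hacd3, Elovl7 and Acadl were not called by limma-voom (adjusted p 0.0535 to 0.0635). As with the members, none of these calls of named genes held without CX-5461 library 1, 2 or 3. In the authors' deposited table Hsd17b12 (FDR 0.284) and Hacd3 (FDR 0.218) were not called, and Elovl7 and Acadl were lower (FDR 1.41e-05 and 0.0422). Of the 21 genes of supply, elongation and assembly, 1 was higher and 4 lower there, where 3.57% of all genes were higher and 6.83% lower.

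In the authors' deposited table for the same p53WT 10 h comparison, 9 of 31 members were higher and 1 lower at an FDR under 0.05, where 3.57% of all genes were higher and 6.83% lower. The higher members were Sqle, Cyp51, Idi1, Msmo1, Hsd17b7, Insig1, Stard4, Fasn and Elovl6, so that this table called both branches. Fasn had a log2 fold change of 0.70 (FDR 0.00440) and Elovl6 of 0.54 (FDR 0.0130) in the authors' deposited table. Scap, Dhcr7 and Ebp, called from the counts, were not called there.

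In p53null AML after 10 h, no member passed. Of 30 members, the authors' deposited p53null table had 0 higher and 0 lower (1 higher and 1 lower at an unadjusted p under 0.05), and 0.148% of all genes were higher and 0.0389% lower. Log2 fold changes of the members ran from -0.22 for Hsd17b7 to 0.17 for Mvd in the authors' deposited p53null table, with a median of -0.04. Sqle was at -0.003, Insig1 at 0.02, Stard4 at 0.01 and Fasn at 0.02 in the authors' deposited p53null table. The values of the same genes in the authors' deposited table for p53WT AML at 10 h were 0.70, 0.43, 0.43 and 0.70. The markers of other cells moved little as well, with medians of -0.04 for 10 neutrophil markers and -0.27 for the 3 erythroid markers present, in the authors' deposited p53null table. A test of the difference between the genotypes was not made, because the p53null table holds no values per library.

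At 72 h in p53WT AML the members moved in both directions. Of 30 members in the authors' deposited table, 2 were higher and 7 lower, where 16.1% of all genes were higher and 15.1% lower. Whether the members differ from all genes in either share was not tested. The 7 lower members were Fdps (log2 fold change -0.26, FDR 0.00469), Sqle (-0.39, FDR 0.00439), Nsdhl (-0.28, FDR 0.0231), Insig1 (-0.27, FDR 0.0112), Scd2 (-0.39, FDR 8.84e-05), Elovl6 (-0.51, FDR 0.00315) and Fads1 (-0.62, FDR 2.26e-09) in the authors' deposited table. Of these, Sqle, Insig1 and Elovl6 were called higher at 10 h in the authors' deposited tables. These were 3 of 30 members, where 69 of 12277 genes present at both times were called higher at 10 h and lower at 72 h. Hsd17b7 was higher at both times, by 0.49 at 10 h and 0.34 at 72 h (FDR 0.0159), in the authors' deposited tables. The factor genes Srebf1 and Srebf2 were not called, at -0.14 and -0.07 in the authors' deposited table for 72 h.

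By branch at 72 h, 3 of 17 sterol enzymes were lower and 1 higher with a median of -0.0003, and 3 of 7 fatty acid genes were lower and 1 higher with a median of 0.08, in the authors' deposited table. The enzymes of unsaturated and longer fatty acids Scd2, Elovl6 and Fads1 were lower, while Fasn, Acaca and Acly had log2 fold changes of 0.21, 0.12 and 0.08 and did not pass. Scd1 was the other way, with a log2 fold change of 2.0 (FDR 5.08e-09) at a mean of 1.40 CPM in the authors' deposited table. Across the 30 members in both p53WT tables, 24 had a positive value at 10 h, and 14 of these (58.3%) had a negative value at 72 h. Of the 6210 genes with a positive value at 10 h among all 12277 in both tables, 56.0% had a negative one at 72 h, a share near that of the members. By group the 14 were 6 of 13 sterol enzymes, 5 of 5 sensing and transport genes and 3 of 6 fatty acid genes with a positive value at 10 h. The 10 h and 72 h comparisons have vehicle groups of their own, and their difference was not tested.

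Most markers of other cells were higher at 72 h. By the authors' deposited table for 72 h, 10 of 10 neutrophil, 9 of 11 erythroid and 6 of 10 macrophage markers were higher. The macrophage marker Ccr2 was lower at both times in p53WT AML in the authors' deposited tables (-0.54 at 72 h, FDR 0.00333), and 2 of 10 immature myeloid markers were higher and 4 lower. The fat-handling genes of the adipocyte list that were present, Fabp4, Pparg, Lpl and Cd36, were higher by 2.09 to 2.77 on the log2 scale in the authors' deposited table. Their part in the Scd1 rise was not tested. Among 12 LXR and export genes, 3 were higher and 1 lower in the authors' deposited table. The sterol exporter gene Abca1 was higher by 3.68 (FDR 5e-19, mean 4.75 CPM) and Nr1h3 by 0.74 (FDR 0.000451) in the authors' deposited table. Npc2 was lower (-0.39, FDR 0.000132, mean 307 CPM), and Abcg1 stood at -0.18 (FDR 0.160), in the authors' deposited table. Of 11 SREBP processing genes, Sec24c was higher (0.20, FDR 0.0281) in the authors' deposited table. Erlin1 (-0.37, FDR 0.000106) and Mbtps1 (-0.25, FDR 0.0210) were lower there. Of 22 genes of fatty acid supply and assembly, 7 were higher and 2 lower, where 16.1% of all genes were higher and 15.1% lower. The smallest p were those of Agpat3 (1.14, FDR 6.46e-09), Elovl5 (-0.47, FDR 2.41e-07) and Me1 (1.37, FDR 1.4e-06) in the authors' deposited table. Agpat3, Acss2 (0.37, FDR 0.0304), G6pdx (0.42, FDR 8.26e-06) and Elovl7 (0.56, FDR 0.0216) were higher at 72 h but lower at 10 h in the authors' deposited tables. Lpin1 was higher again (0.53, FDR 0.00622) in the authors' deposited table for 72 h. Of 15 fatty acid oxidation genes, 1 was higher, the carnitine transferase gene Cpt1a (0.39, FDR 0.00103), and 4 were lower, among them Decr1 (-0.39, FDR 0.000689), in the authors' deposited table.

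**Figure D4:**
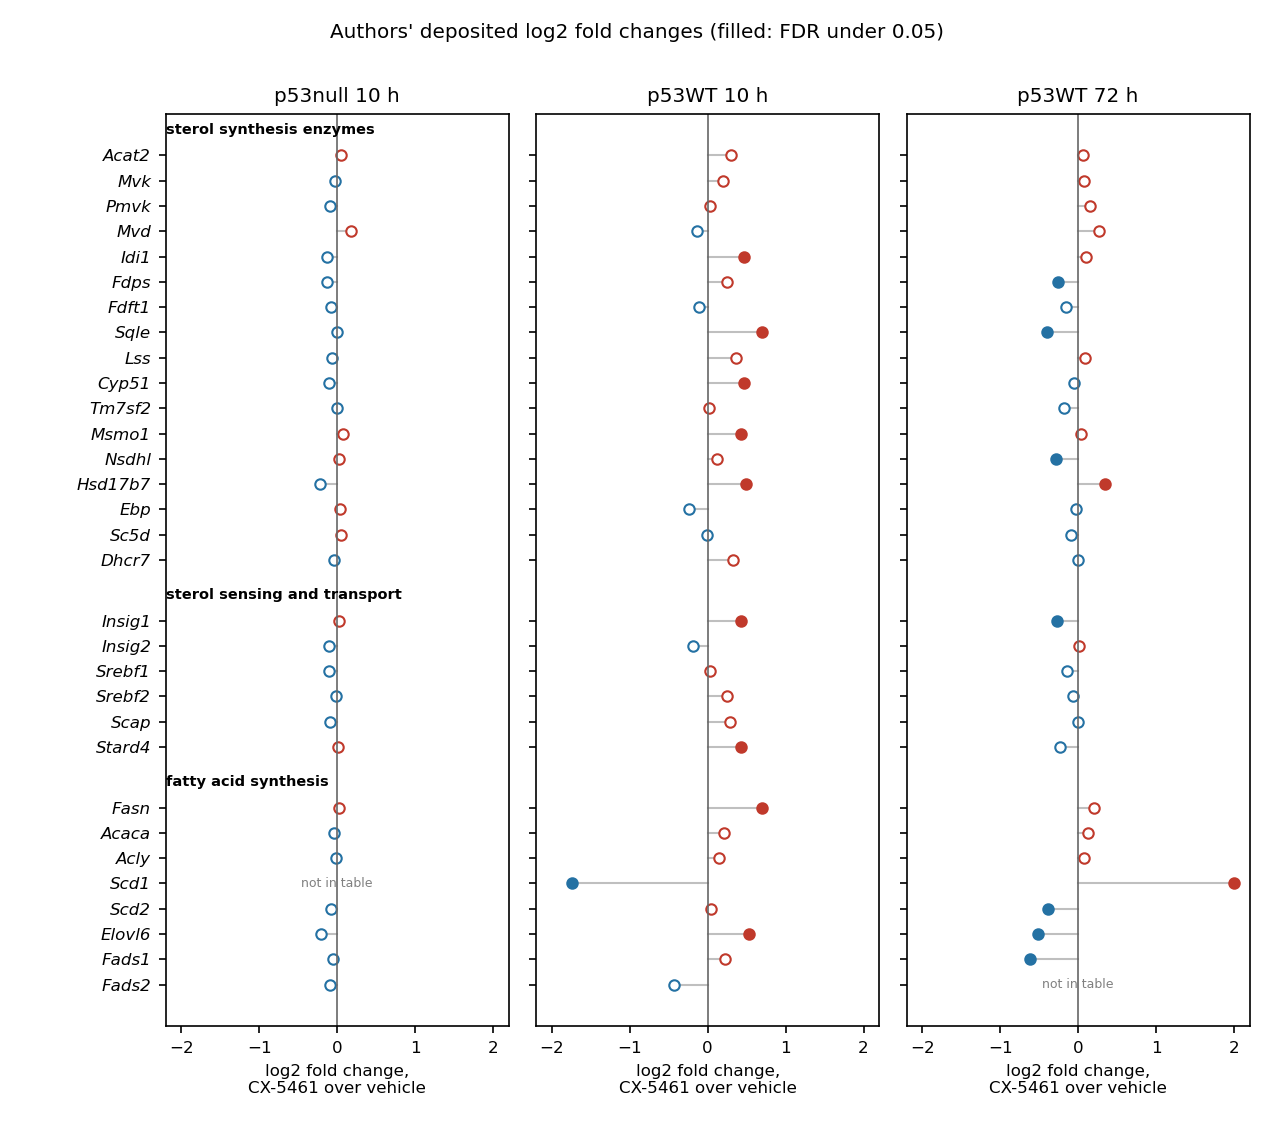
Authors' deposited log2 fold changes of CX-5461 over vehicle (horizontal axis) for 31 members in each of the 3 comparisons; filled points passed an FDR of 0.05, and a member without a row is marked. At 10 h 0 members pass in p53null AML, and 9 are higher and 1 lower in p53WT AML; at 72 h 2 are higher and 7 lower.

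Levels over both arms also differed between the genotypes at 10 h, by branch. These are means of separately normalized deposited tables, so they are set side by side with no test. Among the authors' deposited means, 15 of 17 sterol enzymes and 6 of 6 sensing genes had the lower mean in p53null AML, and 6 of 7 fatty acid genes had the higher mean there, where 43.3% of 11879 genes did. The median log2 difference, p53null minus p53WT, was -0.71 for sterol enzymes, -0.15 for sensing genes, 0.76 for fatty acid genes and -0.07 for all genes. Some of these means were close, such as Scap (72.8 CPM in p53null AML, 74.4 CPM in p53WT AML) and Acly (328 CPM in p53null AML, 317 CPM in p53WT AML). Stard4 averaged 21.0 CPM in p53null AML and 74.7 CPM in p53WT AML, and Idi1 18.9 CPM in p53null AML and 47.0 CPM in p53WT AML, in the authors' deposited tables. Fasn averaged 273 CPM in p53null AML and 161 CPM in p53WT AML, Fads1 48.3 CPM in p53null AML and 25.1 CPM in p53WT AML, and Fads2 8.96 CPM in p53null AML and 1.51 CPM in p53WT AML, in the authors' deposited tables. Against the 72 h table of p53WT AML, 14 of 17 sterol enzymes and 5 of 6 sensing genes were lower and 5 of 6 fatty acid genes higher in p53null AML, where 51.9% of all genes were higher. The mean was also higher in p53null AML than in p53WT AML at 10 h for 8 of 10 neutrophil and 8 of 10 macrophage markers, and lower for 8 of 10 immature myeloid and 3 of 3 erythroid markers, with a median log2 difference of -5.94 for the erythroid ones, in the authors' deposited tables. Against p53WT AML at 72 h, it was higher in p53null AML for 8 of 10 neutrophil and 4 of 10 macrophage markers and lower for 9 of 10 immature myeloid and 3 of 3 erythroid markers. The sample titles of these genotypes carry different tags of unstated meaning, and whether genotype, leukemia or cell mix goes with the branch levels cannot be told apart here.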

How the data were processed

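Per the labels' protocols, GFP-positive cells were sorted from marrow and libraries made with a TruSeq RNA kit. Per the submitters' processing notes, the tools were HTSeq, Bowtie, edgeR and CASAVA 1.8.2, on mm9. Their settings and the annotation are not given in the sources used here. The deposited p53WT 10 h table holds raw counts per gene for 6 libraries, named by arm and not by title number, and every gene in it exceeded 1 CPM in at least 3 libraries. Per the file headers, each of the 3 tables gives p-value, FDR, log2 fold change and log2 mean CPM as the authors computed them. In the p53WT 10 h table the deposited fold changes ran as CX-5461 over vehicle when set against the counts. That direction was assumed for the p53null and 72 h tables, which hold no counts.

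Ensembl IDs were matched to symbols for 12237 (p53WT 10 h), 12366 (p53null) and 12362 (p53WT 72 h) IDs. The counts were fitted whole with edgeR 4.0.16 in R 4.3.3 (TMM, quasi-likelihood, arm as the only term, two-sided), after the functions had been tested on simulated data. Members, gene lists and tests were chosen with earlier results of these data known, and no set test was run. All members are accounted for; per-library values are given for those called in any table. In other lists at most 3 called genes per comparison, by smallest p, were to be named. Hsd17b12, Hacd3, Mylip and Nr1h3 at 10 h, and Lpin1 in p53null AML, were added after their values were seen. So were Abcg1, Lpin1, G6pdx, Elovl7 and Acss2 at 72 h. The planned rule for printing promoters (called members with TCACNCCAC) found none, so the rule was changed to CCAAT after that search. P-values measure the spread between these samples, which the labels do not tie to separate animals, and 3 libraries per arm limit precision. Alternatives were other scaling, DESeq2 1.42.0, limma-voom (limma 3.58.1), a filter at a mean of 5 CPM, leaving out each library, an erythroid covariate and stricter calls in the deposited tables.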

Additional observations from a re-analysis of the deposited data

How the results depend on the processing

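With DESeq2 size factors in edgeR every count of called members was unchanged. DESeq2 itself called 15 members higher and 2 lower (9 sterol enzymes and 2 fatty acid genes higher), limma-voom 8 higher and 0 lower, and a filter at a mean of 5 CPM 1 fatty acid gene higher. Over all 12679 genes, DESeq2 called 962 higher and 1352 lower, and limma-voom 394 higher and 330 lower. The main edgeR fit called 479 higher and 548 lower. With the filter, 515 of 10381 genes were higher and 656 lower. With the erythroid covariate the counts were 0 for all members higher, all members lower, sterol enzymes and sensing genes. Leaving out each library in turn gave 0 to 10 members higher, 0 to 1 lower, 0 to 6 sterol enzymes, 0 to 3 sensing genes and 0 to 2 fatty acid genes higher; the 0 for members higher arose without CX-5461 library 1, 2 or 3, when the whole table had 24, 23 and 23 rises, against 479. In the authors' deposited tables, an FDR under 0.01 left 4 members higher and 1 lower at 10 h, and 1 higher and 5 lower at 72 h, in p53WT AML. An added log2 fold change of at least 0.5 left 3 higher and 1 lower at 10 h, and 1 higher and 2 lower at 72 h. The shares of all genes at these stricter cuts were not counted, so these member counts have no background beside them.

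Signs turned only in members that did not pass. With the erythroid covariate the log2 fold changes were 0.002 for Fdft1, -0.26 for Tm7sf2, 0.14 for Insig2, -0.0045 for Acly, 1.46 for Scd1 and 1.47 for Fads2. Leaving out 1 library turned the sign of 6, whose log2 fold changes ran from -0.0242 to 0.0831 (Pmvk), -0.0375 to 0.0985 (Tm7sf2), -0.0596 to 0.0748 (Sc5d), -0.0199 to 0.0973 (Srebf1), -0.13 to 0.28 (Scd2) and -0.69 to 0.23 (Fads2). The cause was not tested. No paired analysis was possible because the count columns do not carry the replicate numbers of the sample titles. No looser filter could be tried, since genes with low counts have no row. The depth behind the p53null and 72 h tables is unknown.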
